A study of Ovis aries with 9 samples.

Results

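Antioxidant and glutathione system genes were described in cultured ovine granulosa cells, the somatic cells that surround the oocyte and line the follicle. They were chosen by symbol from a list of 36, and 30 of these matched by name 1 gene each among the 39157 genes of the expression table. GSR, SOD2, GPX1, GPX4, SRXN1 and GLRX2 were not matched by name and were not analysed here. The cells came from follicles of 3 to 5 mm of thin-tailed Han sheep and were first cultured for 48 h in medium with serum. Before treatment they were held for 8 h without glucose and serum. CON received 0 mM, LOW 8.4 mM and HIGH 33.6 mM glucose for 24 h, with 3 RNA sequencing libraries in each group. Follicle suspensions from many ovaries were pooled, so the libraries do not stand for separate animals. The labels do not say that they came from separate cultures, so p-values measured only the spread between these libraries, which may be technical.

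Cells remove superoxide through superoxide dismutases, and the hydrogen peroxide that results through catalase, glutathione peroxidases and peroxiredoxins. Glutathione and thioredoxin carry the electrons for the peroxidases and are themselves reduced at the expense of NADPH. NFE2L2 (NRF2) is the transcription factor that drives many of these genes under oxidative stress, KEAP1 holds it in the cytoplasm for degradation, and BACH1 represses some of the same targets. In granulosa cells the same enzymes meet the peroxide formed by steroid synthesis.

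Levels were given as FPKM, the number of fragments per kilobase of transcript relative to sequencing depth, divided by a factor for each library, which lay between 0.931 and 1.13. Differences were given as log2 fold changes of FPKM + 0.1 from limma, fitted across 24364 genes, and a gene was called at a Benjamini-Hochberg adjusted p under 0.05. Of the listed granulosa markers 7 of 12 were matched by name, and they summed to 193 to 253 over the CON libraries; the LOW libraries gave 192 to 205 and the HIGH libraries 170 to 177. CYP11A1, which opens steroid synthesis, reached 138 to 207 and so made up most of that sum, whereas FSHR, the receptor for follicle-stimulating hormone, stayed at or under 0.590. The matched granulosa markers differed in direction. For CYP11A1 and INHA every HIGH value was below every CON and every LOW value. For GATA4 every HIGH value was above every LOW value, and HIGH overlapped CON. For FSHR, INHBA, HSD17B1 and NR5A1 HIGH overlapped both CON and LOW. The list of fibroblast and smooth muscle markers summed to 4601 to 7080, and its members differed in direction. TAGLN, of smooth muscle, ranged from 901 in HIGH replicate 1 to 2900 in CON replicate 3. COL1A1, a fibrillar collagen, was at 31.1, 28.2 and 16.5 in CON, 27.8, 23.6 and 24.6 in LOW and 123, 71.9 and 38.9 in HIGH. For COL1A1, COL1A2, COL3A1 and PDGFRA every HIGH value was above every CON and every LOW value. For the others of the list, DCN, LUM, PDGFRB, ACTA2, TAGLN, MYH11 and DES, HIGH overlapped both CON and LOW. Over all genes tested, HIGH did not overlap CON for 9.26% and did not overlap LOW for 19%. Endothelial markers summed to under 1 in every library (0.659 to 0.997), the theca markers CYP17A1 and INSL3 to 0.140 to 0.432, and leukocyte markers to 17.5 to 25.1. The part of other cell types in the results below was not tested, and in bulk RNA fewer cells of a type cannot be told apart from less RNA per cell.

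With all libraries weighted equally, none of the 30 antioxidant genes passed the test in any comparison of glucose groups. In LOW against CON 0 of 30 were called beside 0.00821% of all genes tested, in HIGH against CON 0 of 30 beside 0.00821%, and in HIGH against LOW 0 of 30 beside 0.00821%. The F test over the 3 groups also called 0 of 30 (0.0123% of all genes), with a lowest adjusted p of 0.834 among the members in limma. At an unadjusted p under 0.05 there were 0 of 30 in LOW against CON (1.81% of all genes), 1 of 30 in HIGH against CON (6.67%) and 0 of 30 in HIGH against LOW (7.57%). No count test was run, since the deposited count tables were taken to hold rescaled FPKM and not read counts. The comparisons share libraries, so their values for one gene are not independent of each other.

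That count of 0 depended on every library having the same weight. When limma weighted the libraries by their estimated scatter, a choice made after seeing the data, 26 of 30 members were called in HIGH against CON (22 lower and 4 higher in HIGH), 15 of 30 in HIGH against LOW, 0 of 30 in LOW against CON (9.24% of all genes) and 27 of 30 in the F test (69%). Over all genes tested 67% were then called in HIGH against CON and 35% in HIGH against LOW. The estimation of those weights did not converge, and CON replicate 2 received a weight of 1200 beside 0.0873 to 4.66 in the other libraries. With weights estimated gene by gene, CON replicate 2 received 10.7 beside 0.195 to 4.69, and 18 of 30 members were called in HIGH against CON (40.8% of all genes), 7 of 30 in HIGH against LOW (20.8%), 0 of 30 in LOW against CON (1.51%) and 12 of 30 in the F test (37.8%).

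The estimated differences were small. In LOW against CON the log2 fold changes lay between -0.34 and 0.14 with a median of -0.02, and 19 of 30 were below 0 (48% of all genes). In HIGH against CON they lay between -0.54 and 0.55 with a median of -0.24, and 25 of 30 were below 0 (45.5% of all genes). In HIGH against LOW they lay between -0.50 and 0.49 with a median of -0.16, and 24 of 30 were below 0 (46.6% of all genes). The median over all genes tested was 0.01, 0.05 and 0.04 in these comparisons, and over the named genes with FPKM of at least 1 throughout it was 0.00, -0.05 and -0.06. The 95% interval lay within a 2-fold change either way for 30, 25 and 24 of 30 members, beside 56.2%, 47.5% and 48.1% of all genes. The members lay between percentiles 42.8 and 99.5 of level among the named genes, and no share matched by level was computed. These shares therefore do not show that the members were more tightly bounded than genes of like level. The groups did not overlap for 2 of 30 members in LOW against CON (6.08% of all genes), 2 of 30 in HIGH against CON (9.26%) and 3 of 30 in HIGH against LOW (19%).

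**Figure D1:**
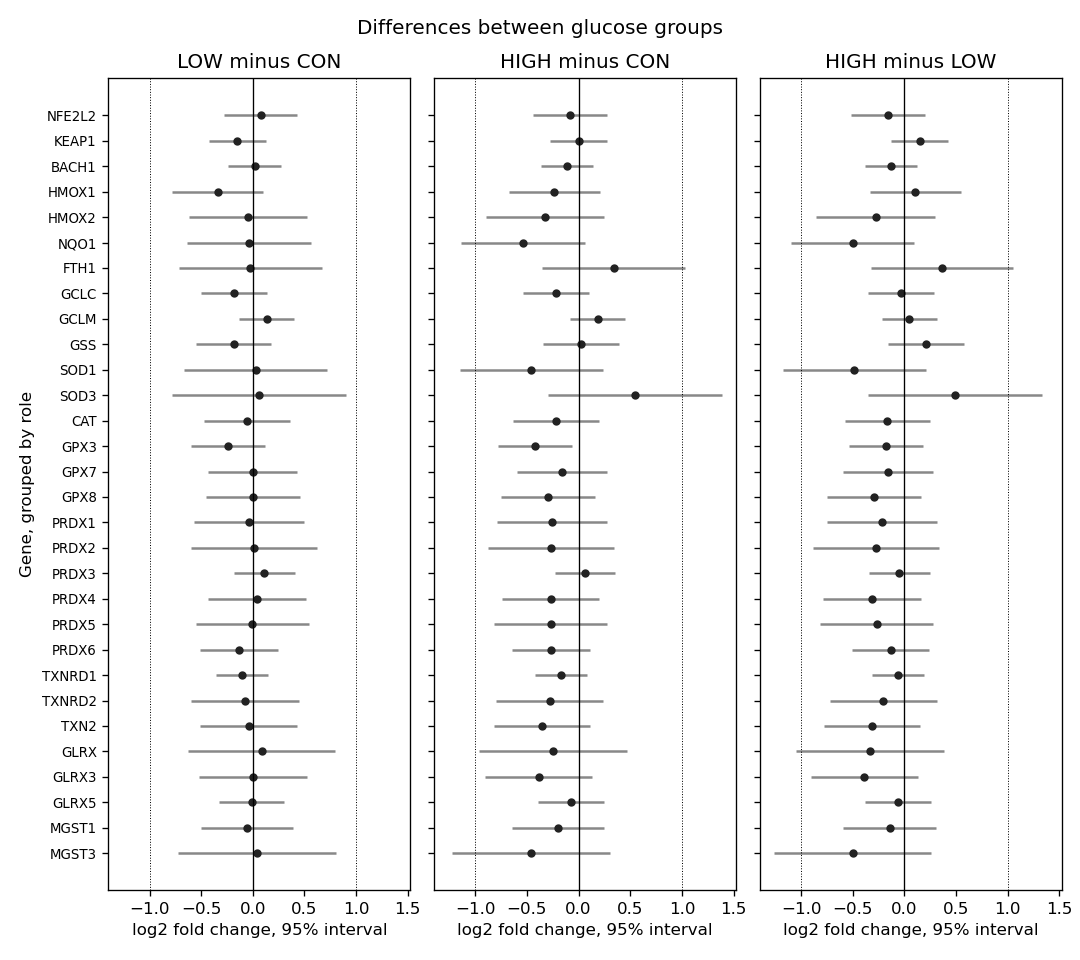
Log2 fold changes of the 30 genes (points) with 95% intervals (lines) in LOW minus CON, HIGH minus CON and HIGH minus LOW; dotted lines mark a 2-fold change either way. All 30 intervals lie inside the dotted lines in LOW minus CON, 25 in HIGH minus CON and 24 in HIGH minus LOW, and only that of GPX3 in HIGH minus CON does not reach 0.

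The regulators were at moderate levels and close between groups. NFE2L2 (chromosome 2, 131754249 to 131759072) had FPKM of 29.4, 37.0 and 38.0 in CON, 35.5, 38.3 and 35.5 in LOW and 26.8, 34.0 and 38.1 in HIGH. The 3 groups overlapped, with HIGH replicate 1 the lowest and HIGH replicate 3 among the highest. Its log2 fold change was 0.07 ± 0.16 (SE) in LOW against CON and -0.09 ± 0.16 (SE) in HIGH against CON. KEAP1 (chromosome 5, 12692652 to 12699790) had 9.02, 8.97 and 10.9 in CON, 8.74, 8.99 and 8.20 in LOW and 9.47, 9.85 and 9.47 in HIGH. Every HIGH library lay above every LOW library, at a log2 difference of 0.15 ± 0.12 (SE) and an adjusted p of 0.677 in limma. BACH1, the repressor, had 19.2, 21.6 and 20.3 in CON, 18.6, 21.9 and 21.3 in LOW and 18.8, 18.9 and 18.7 in HIGH, and all HIGH values were below all CON values by a log2 difference of -0.11 ± 0.11 (SE) (limma adjusted p = 0.680).

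Among the enzymes of haem, quinones and iron, NQO1 had the most negative difference and FTH1 a positive one. HMOX1, the inducible haem oxygenase (chromosome 3, 178680119 to 178684272), had 14.3, 17.8 and 22.3 in CON, 12.5, 17.4 and 12.7 in LOW and 14.3, 17.4 and 13.9 in HIGH. Its groups overlapped, and CON replicate 3 held the highest value. The log2 fold change was -0.34 ± 0.20 (SE) in LOW against CON, with an interval from -0.78 to 0.10. NQO1, which reduces quinones (chromosome 14, 36118808 to 36131168), had 17.2, 21.2 and 29.3 in CON, 21.0, 20.7 and 22.8 in LOW and 10.5, 14.9 and 22.1 in HIGH. HIGH replicates 1 and 2 lay below all other libraries and HIGH replicate 3 lay within the range of LOW. The log2 fold change was -0.54 ± 0.27 (SE) in HIGH against CON, with an interval from -1.14 to 0.06, and -0.50 ± 0.27 (SE) in HIGH against LOW. FTH1, the heavy chain of the iron store ferritin (chromosome 21, 39823812 to 39888135), had 548, 416 and 212 in CON, 371, 353 and 351 in LOW and 509, 499.8 and 385 in HIGH. Its CON values spanned those of both other groups, and every HIGH value was above every LOW value, at a log2 difference of 0.36 ± 0.31 (SE) with an interval from -0.33 to 1.06. HMOX2, the constitutive haem oxygenase, averaged 97.2 ± 33.0 in CON, 90.9 ± 9.35 in LOW and 76.1 ± 18.4 in HIGH (SD, n = 3 each).

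Glutathione is made by glutamate-cysteine ligase, with GCLC as catalytic and GCLM as modifier subunit, and then by glutathione synthetase, GSS. GCLC had 7.20, 7.79 and 9.21 in CON, 6.60, 7.19 and 7.37 in LOW and 6.42, 6.53 and 7.80 in HIGH. The groups overlapped, at a log2 fold change of -0.19 ± 0.14 (SE) in LOW and -0.22 ± 0.14 (SE) in HIGH against CON. GCLM had 14.9, 15.5 and 16.0 in CON, 17.0, 16.9 and 17.1 in LOW and 15.9, 17.0 and 20.1 in HIGH. All LOW values were above all CON values, at a log2 fold change of 0.14 ± 0.12 (SE) (limma adjusted p = 1.00), and HIGH overlapped both. Its main transcript GCLM-201, at 82.9% to 91.8% of the FPKM, overlapped between LOW and CON, at a log2 fold change of 0.08. The assembled TCONS_00018519, at 3.02% to 9.28%, had 0.94 (limma unadjusted p = 0.027). The separation at gene level was therefore not seen in the main transcript. GSS, the lowest of the 30 in mean level, had 5.54, 4.62 and 4.30 in CON, 4.80, 4.01 and 3.83 in LOW and 5.38, 5.01 and 4.26 in HIGH. Its groups overlapped, and its log2 fold change was -0.19 ± 0.16 (SE) in LOW and 0.02 ± 0.16 (SE) in HIGH against CON. The catalytic and the modifier subunit therefore had estimates of opposite sign, and neither passed the test.

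Among the enzymes that act on superoxide and peroxide directly, SOD1 and SOD3 had opposite patterns across libraries. SOD3, the secreted superoxide dismutase (chromosome 6, 44238599 to 44244972), had 44.0, 28.4 and 16.4 in CON, 29.0, 28.4 and 28.0 in LOW and 58.8, 44.9 and 24.4 in HIGH. It varied most within groups of all 30 genes, with a log2 SD of 0.56, and CON replicate 3 was the lowest and HIGH replicate 1 the highest library. Its log2 fold change was 0.55 ± 0.38 (SE) in HIGH against CON with an interval from -0.29 to 1.39. SOD1, the cytosolic enzyme, had HIGH replicate 1 as its lowest and CON replicate 3 as its highest library. It averaged 68.9 ± 30.9 in CON, 65.6 ± 3.12 in LOW and 48.2 ± 14.1 in HIGH (SD, n = 3 each), at -0.46 ± 0.31 (SE) in HIGH against CON. CAT, the peroxisomal catalase, averaged 106 ± 22.4 in CON, 101 ± 7.33 in LOW and 90.9 ± 16.5 in HIGH (SD, n = 3 each).

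GPX3, the secreted glutathione peroxidase (chromosome 5, 59808263 to 59816099), was the only member with an unadjusted p under 0.05. It had 65.0, 69.6 and 86.3 in CON, 61.8, 64.2 and 59.2 in LOW and 60.9, 59.6 and 44.6 in HIGH. Every CON value was above every LOW and every HIGH value, and HIGH replicate 3 was the lowest. The log2 fold change was -0.42 ± 0.16 (SE) in HIGH against CON (limma adjusted p = 0.650) and -0.24 ± 0.16 (SE) in LOW against CON. Its estimate stayed below 0 in HIGH against CON in all 26 alternative settings, between -0.62 and -0.23, and passed the test in the 2 weighted fits. Among the 16 members given in every library, the same held for BACH1, NQO1, GCLC, PRDX1, PRDX6, TXNRD1 and MGST3, and SOD3 did so with estimates above 0. The other members were not examined in this way. The settings refit the same libraries, so a stable sign is not independent support, and its share over all genes was not computed. The 2 weighted fits called 67% and 40.8% of all genes. GPX7 averaged 12.6 ± 2.31 in CON, 12.6 ± 1.96 in LOW and 11.3 ± 2.11 in HIGH and GPX8 117 ± 19.2 in CON, 116 ± 9.64 in LOW and 96.8 ± 26.5 in HIGH (SD, n = 3 each); both are peroxidases of the endoplasmic reticulum.

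The peroxiredoxins included the highest levels. PRDX1, a cytosolic peroxiredoxin with the highest mean of the 30 (chromosome 1, 19912292 to 19922232), had 476, 596 and 783 in CON, 550.2, 615 and 603 in LOW and 425, 463 and 662 in HIGH. HIGH replicates 1 and 2 were the lowest libraries and CON replicate 3 the highest, and its log2 fold change was -0.26 ± 0.24 (SE) in HIGH against CON. PRDX6, a peroxiredoxin that also has phospholipase activity, had 279.6, 319 and 413 in CON, 295, 312 and 302 in LOW and 263, 280.4 and 287 in HIGH. Every HIGH value was below every LOW value, at a log2 difference of -0.13 ± 0.17 (SE) (limma adjusted p = 0.772). PRDX4, of the endoplasmic reticulum, averaged 231 ± 55.8 in CON, 233 ± 18.7 in LOW and 190.3 ± 38.2 in HIGH (SD, n = 3 each). PRDX5 averaged 125 ± 37.7 in CON, 121 ± 9.60 in LOW and 103 ± 26.9 in HIGH, PRDX2 76.9 ± 25.7 in CON, 74.7 ± 5.43 in LOW and 63.7 ± 20.5 in HIGH and the mitochondrial PRDX3 38.0 ± 4.07 in CON, 41.1 ± 3.38 in LOW and 39.6 ± 3.54 in HIGH (SD, n = 3 each). All 6 were below 0 in HIGH against LOW, between -0.31 for PRDX4 and -0.05 for PRDX3, as were 46.6% of all genes. With the ribosomal level of each library as a covariate, a fit described further on, 5 of the 6 were above 0, up to 0.11 for PRDX2, and PRDX4 was at -0.05. That level also differed between groups, so in that fit a difference by glucose cannot be told apart from one between libraries. Counting of such multicopy genes as PRDX1 and FTH1 can split reads with processed copies, so their levels are uncertain.

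In the thioredoxin system, TXNRD1, the cytosolic thioredoxin reductase, had 29.1, 29.2 and 33.3 in CON, 28.6, 29.1 and 27.0 in LOW and 26.5, 25.8 and 29.1 in HIGH. Its groups overlapped, at a log2 fold change of -0.17 ± 0.11 (SE) in HIGH against CON. The mitochondrial reductase TXNRD2 averaged 19.3 ± 4.92 in CON, 17.9 ± 0.699 in LOW and 15.9 ± 4.14 in HIGH and the mitochondrial thioredoxin TXN2 54.6 ± 12.1 in CON, 52.2 ± 3.37 in LOW and 42.9 ± 10.3 in HIGH (SD, n = 3 each). GLRX, a cytosolic glutaredoxin that removes glutathione from proteins, had 11.5, 19.1 and 26.5 in CON, 17.1, 19.2 and 21.1 in LOW and 10.4, 15.9 and 21.1 in HIGH. CON replicate 3 was its highest library and HIGH replicate 1 its lowest, and the groups overlapped. The gene model of GLRX spans 321 bases. GLRX3 averaged 74.4 ± 23.2 in CON, 72.2 ± 4.32 in LOW and 56.0 ± 12.5 in HIGH and GLRX5 56.2 ± 8.62 in CON, 55.4 ± 4.74 in LOW and 53.0 ± 2.13 in HIGH (SD, n = 3 each); both take part in iron-sulfur cluster handling. MGST3, a microsomal glutathione transferase, had 11.3, 18.3 and 28.1 in CON, 17.4, 19.4 and 18.8 in LOW and 8.89, 12.8 and 19.5 in HIGH. HIGH replicate 1 was its lowest library and CON replicate 3 its highest, at a log2 fold change of -0.46 ± 0.34 (SE) in HIGH against CON. MGST1 averaged 78.9 ± 15.5 in CON, 75.0 ± 2.40 in LOW and 69.3 ± 17.6 in HIGH (SD, n = 3 each).

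**Figure D2:**
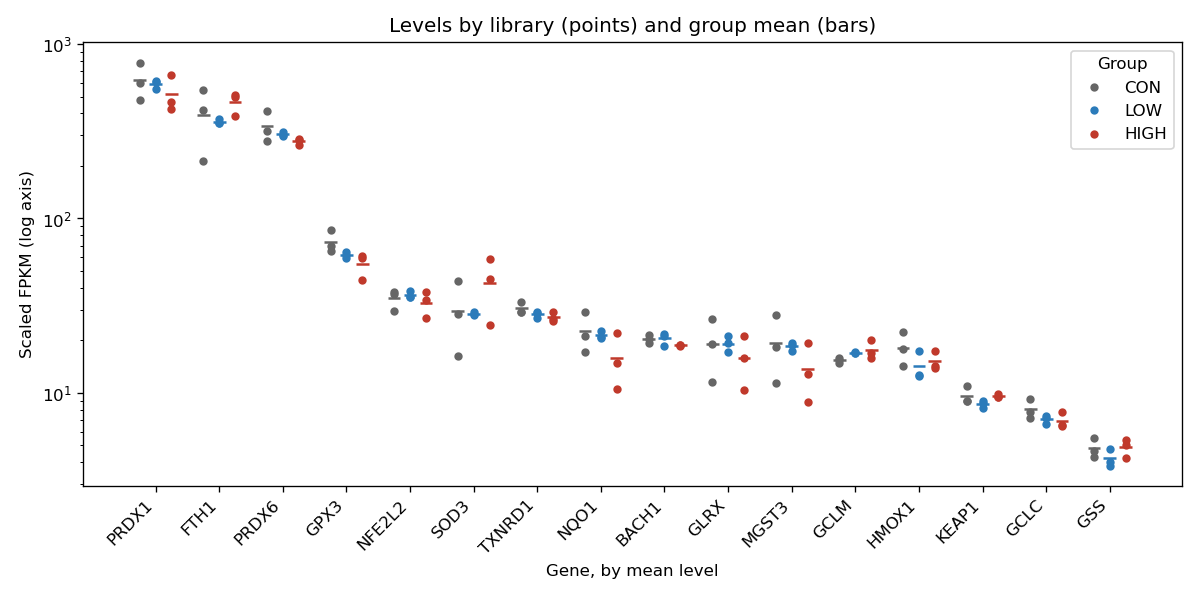
Scaled FPKM (log axis) of 16 of the genes in each library (points, colored by group) with group means (short bars), ordered by mean level. PRDX1, FTH1 and PRDX6 lie above 200 in every library, and KEAP1, GCLC and GSS lie at or below 10.9, with the groups overlapping for most genes.

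The spread between libraries was of the same order as the differences between groups and ran the same way in most members. CON replicate 3 was the highest library for 23 of 30 members, beside 42.7% of the 8530 named genes whose FPKM never went under 1. HIGH replicate 1 was the lowest for 19 of 30, beside 33.7% of those genes. The median deviation of the members from their own means was -0.18, 0.07 and 0.42 (log2) in CON, -0.01, 0.11 and 0.07 in LOW and -0.37, -0.14 and 0.12 in HIGH. FTH1, SOD3 and GSS ran the other way in CON, being highest in replicate 1 and lowest in replicate 3. The SD of log2 values, as a median over members, was 0.31 in CON, 0.09 in LOW and 0.28 in HIGH. The LOW libraries had the smallest SD for 26 of 30 members.

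**Figure D3:**
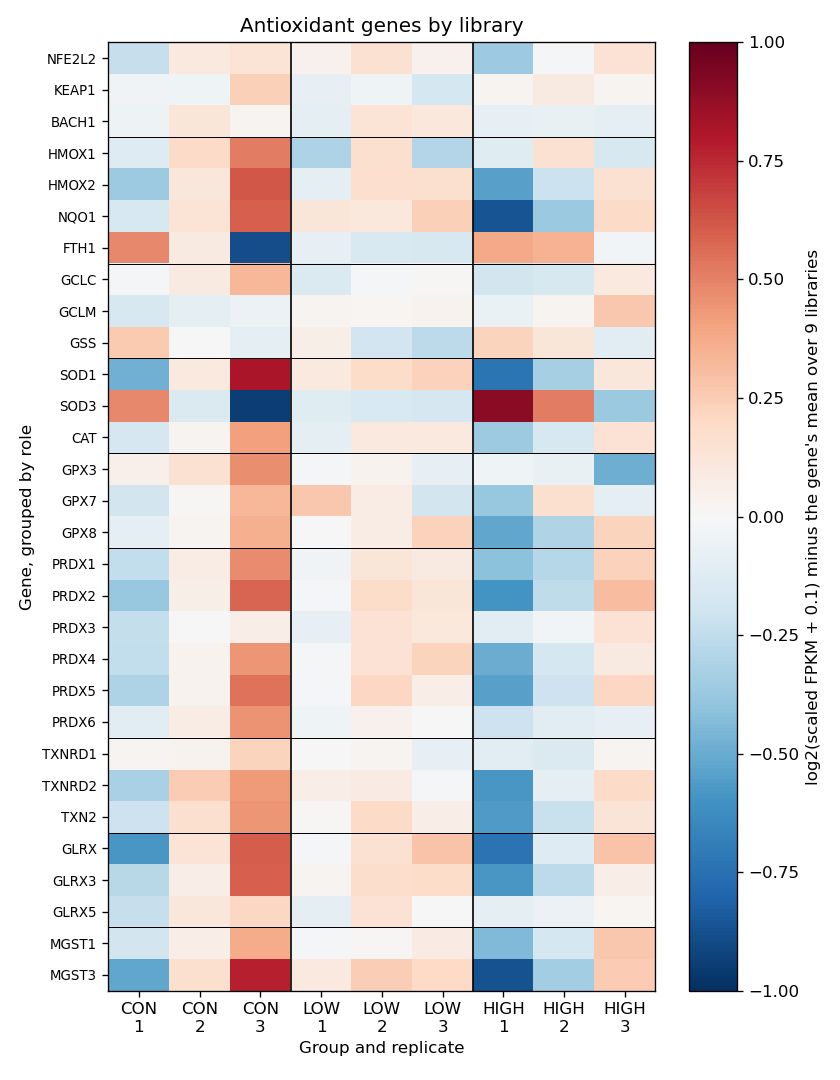
Deviation of log2 scaled FPKM from the mean of each gene over 9 libraries (color), with genes in rows by role and libraries in columns by group. CON replicate 3 is the highest library for 23 of 30 genes and HIGH replicate 1 the lowest for 19, while FTH1 and SOD3 show the opposite colors.

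Genes picked by the symbols of cytosolic ribosomal proteins varied with the members across libraries. Only the start of the symbol was used, so genes named after a ribosomal protein, such as its kinases, were not excluded. The median deviation of these 36 genes was -0.51, 0.17 and 0.50 (log2) in CON, 0.08, 0.24 and 0.21 in LOW and -0.69, -0.26 and 0.26 in HIGH. The share of FPKM in small RNA genes ranged from 30.3% in HIGH replicate 1 to 72.1% in LOW replicate 3. With the ribosomal median of each library as a covariate, chosen after seeing the data, the median residual SD of the members went from 0.265 to 0.0906 and was smaller for 28 of 30, beside 0.227 to 0.132 and 82.5% of the named genes. In that fit 0 of 30 members were called, and the median differences of the members were -0.11 in LOW against CON, -0.07 in HIGH against CON and 0.04 in HIGH against LOW. At an unadjusted p under 0.05 it held HMOX1 (-0.38) and GCLC (-0.23) in LOW against CON, beside 6.31% of all genes. In HIGH against CON it held NQO1 (-0.29), GPX3 (-0.43), TXN2 (-0.16) and GCLM (0.24), beside 10% of all genes, and in HIGH against LOW none of 30, beside 8.36%. GPX3 had a similar estimate with and without the covariate, and that of NQO1 was closer to 0 with it. Neither the ribosomal level nor the small RNA share is a batch named by the labels.

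**Figure D4:**
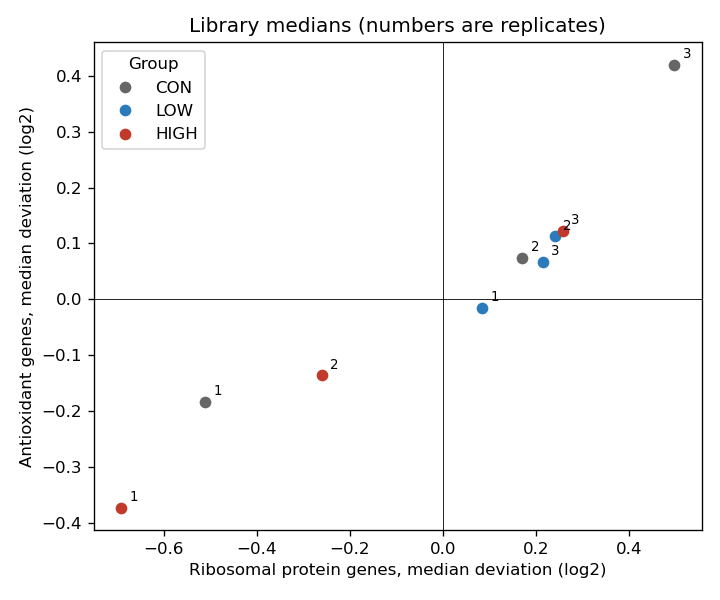
Median log2 deviation of the 30 antioxidant genes against that of 36 genes picked by ribosomal protein symbols in each of the 9 libraries, colored by group and numbered by replicate. HIGH replicate 1 is at -0.69 and -0.37 and CON replicate 3 at 0.50 and 0.42, and the LOW libraries lie close together.

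Single libraries also set the number of members with an unadjusted p under 0.05, while 0 of 30 were called in each fit that left out 1 library. In HIGH against CON that number was 11 of 30 without CON replicate 1 (26.2% of all genes), 5 of 30 without HIGH replicate 3 (13.6%) and 0 of 30 without CON replicate 3 (4.08%), against 1 with all libraries. In HIGH against LOW it was 6 of 30 without HIGH replicate 3 (16.1%), against 0. In LOW against CON it was 1 of 30 without CON replicate 1 (4.3%) and 1 of 30 without LOW replicate 2 (1.76%), against 0. Leaving out CON replicate 1 and HIGH replicate 1 together, chosen after seeing the data, gave 1, 2 and 0 of 30, beside 4.59%, 12.3% and 4.9% of all genes.

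Transcripts gave no call either. The members had 59 transcripts, of which 54 were tested among 39471, and 0 were called in LOW against CON (0.0253% of all transcripts), HIGH against CON (0.0279%) and HIGH against LOW (0.0355%), with a lowest adjusted p of 0.724 in limma. At an unadjusted p under 0.05 there were 1, 2 and 0 of 54, beside 2.73%, 5.87% and 6.72% of all transcripts. The 1 was TCONS_00018519 of GCLM, and the 2 were TCONS_00237878 of GPX3 and PRDX2-201. NFE2L2 had a pair of annotated transcripts, NFE2L2-201 and NFE2L2-202. In 8 of 9 libraries NFE2L2-201 held 62.6% to 70.0% of the FPKM of the gene, and in HIGH replicate 1 it held 0.928% while NFE2L2-202 held 99.1%. The gene total in that library was 26.8. PRDX2 was split among PRDX2-201, at 2.66% to 6.30%, and 3 assembled transcripts, and the share of TCONS_00233620 ranged from 0 to 96.9%. In HIGH replicate 1 TCONS_00233621 held 86.8%, and in HIGH replicate 2 TCONS_00233619 held 84.8%. These transcripts have nearly the same span, so how the reads were divided among them is uncertain.

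Several members shared their FPKM with transcripts labelled as overlapping or antisense, at 5% or more in 4 members. TXNRD2-OT1, a transcript of 1027 bases, held 56.4% to 71.0% of the FPKM of TXNRD2. GLRX5-OT1 held 43.8% to 64.9% of GLRX5, and GPX8-OT1 held 25.1% to 43.6% of GPX8. GCLM-OT1 held 5.21% to 8.93% of GCLM. For these genes the level is therefore in part that of another transcript. FTH1 rested on an assembled transcript, TCONS_00161085, at 93.1% to 99.2%, whose span of 2443 bases lies in a gene model of 64324 bases. Whether the counting used strand is not given in the sources used here, so reads of a gene and of an antisense partner cannot be told apart.

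**Figure D5:**
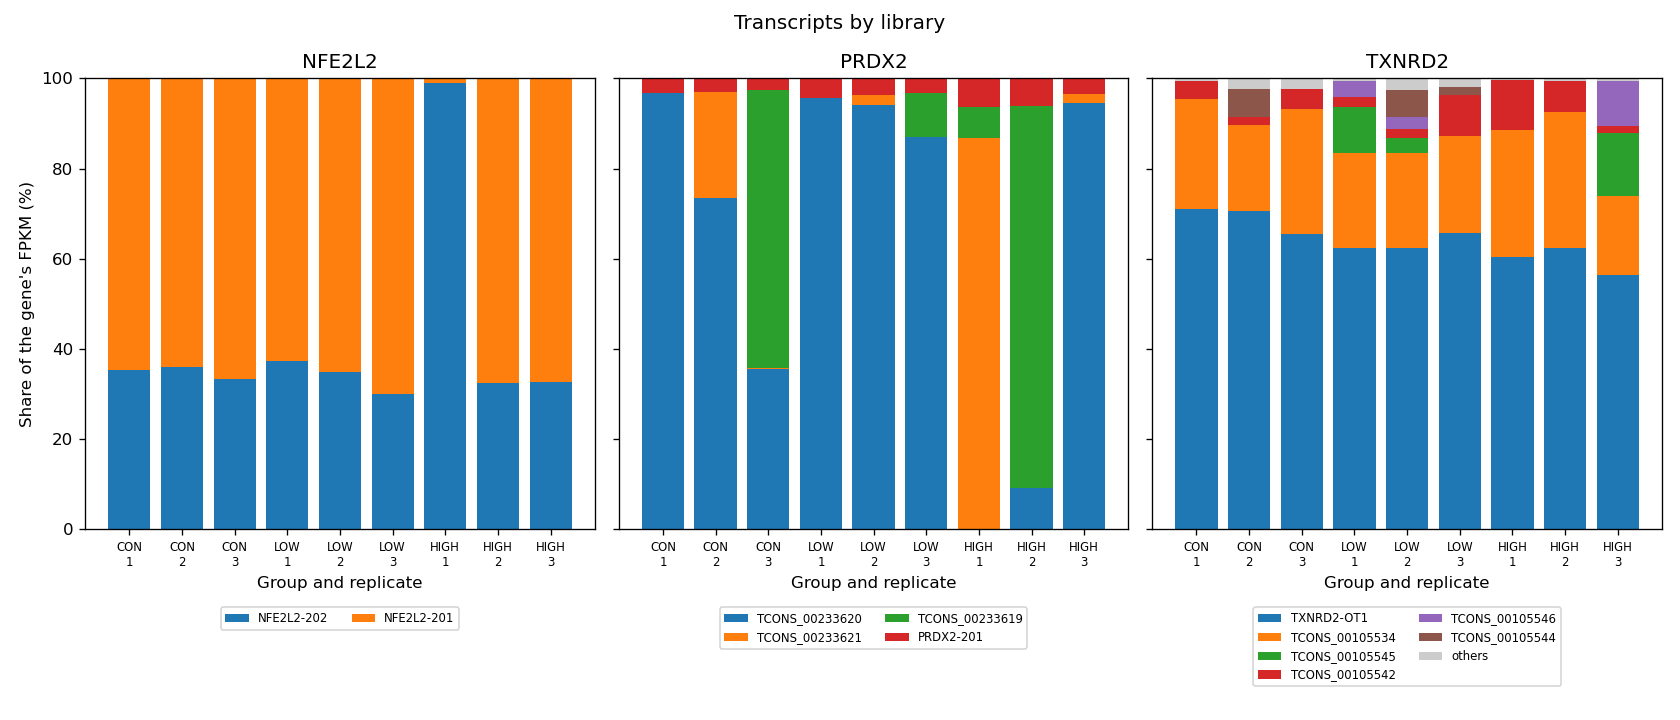
Share of the FPKM of NFE2L2, PRDX2 and TXNRD2 held by each transcript (colors) in each library; transcripts that never reach 5% are pooled as others. NFE2L2-202 holds 99.1% in HIGH replicate 1, the PRDX2 transcripts change places between libraries, and TXNRD2-OT1 holds 56.4% to 71.0% throughout.

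Related genes were taken from 8 lists of the same pathways, of which 98 of 140 genes were tested, and 0 of 98 were called in any comparison. TXNIP, which binds and inhibits thioredoxin, had the largest difference in both comparisons with CON. Its FPKM was 67.5, 89.1 and 108 in CON, 214, 227 and 235 in LOW and 175, 202 and 217 in HIGH. Every LOW and HIGH value was above every CON value. The log2 fold change was 1.38 in LOW against CON (limma adjusted p = 0.193) and 1.19 in HIGH against CON (adjusted p = 0.270). Outside the weighted fits it was called in LOW against CON with quantile normalization, without scaling, with the replicate block, with either covariate and without CON replicate 3, where the estimate lay between 1.27 and 1.53. In HIGH against CON it was called with quantile normalization and with either covariate, at 1.33 to 1.43. MSRA, which repairs oxidised methionine, had the next lowest F p in its list. It had 3.15, 2.72 and 2.61 in CON, 3.01, 2.39 and 1.71 in LOW and 3.51, 3.45 and 3.35 in HIGH, with every LOW value below every HIGH value.

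The genes given from the other lists were among those with the lowest F p, and none was called. GSTA1, a glutathione transferase, had 3.66, 5.34 and 7.20 in CON, 4.80, 4.74 and 4.08 in LOW and 2.01, 3.13 and 2.99 in HIGH, at -0.94 in HIGH against CON. GSTK1, the mitochondrial and peroxisomal transferase, had 16.2, 20.6 and 26.2 in CON, 19.4, 19.5 and 18.9 in LOW and 8.78, 14.3 and 16.3 in HIGH. Both had all HIGH values below all LOW values. Among partners and targets of NRF2, BLVRB, a biliverdin reductase, had 21.4, 29.9 and 42.9 in CON, 22.0, 26.5 and 29.3 in LOW and 9.87, 17.3 and 24.4 in HIGH, at -0.90 in HIGH against CON. For NADPH supply, PGD, a dehydrogenase of the pentose phosphate pathway, had 36.6, 31.4 and 24.5 in CON, 31.8, 27.4 and 26.7 in LOW and 55.9, 41.0 and 30.8 in HIGH, at 0.44 in HIGH against CON.

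In glutathione synthesis and turnover, SLC7A11, the cystine transporter, had 3.75, 3.16 and 2.77 in CON, 3.88, 4.06 and 3.56 in LOW and 2.70, 3.29 and 2.76 in HIGH. SLC3A2, its heavy chain, had 34.7, 38.5 and 46.1 in CON, 33.2, 34.3 and 34.8 in LOW and 35.4, 34.3 and 32.2 in HIGH. Every HIGH value of SLC7A11 was below every LOW value. Among selenoproteins and their synthesis, SELENOK, of the endoplasmic reticulum, had 28.2, 45.7 and 69.4 in CON, 46.2, 44.4 and 49.7 in LOW and 20.0, 23.9 and 38.2 in HIGH. PSTK, a kinase of selenocysteine synthesis, had 2.14, 2.16 and 4.09 in CON, 2.83, 2.54 and 2.66 in LOW and 1.54, 1.53 and 2.28 in HIGH. Both had CON replicate 3 as the highest library. The list of sources of superoxide and peroxide also held UCP2, which is a mitochondrial carrier and not an oxidase. UCP2 had 6.45, 4.76 and 1.60 in CON, 5.25, 4.72 and 4.04 in LOW and 11.1, 7.44 and 5.25 in HIGH. NOX4, an oxidase that makes hydrogen peroxide, had 2.53, 2.62 and 2.23 in CON, 2.86, 3.06 and 2.81 in LOW and 3.14, 3.46 and 2.67 in HIGH. For UCP2 CON replicate 3 was the lowest library and HIGH replicate 1 the highest, as for SOD3. Among genes of ferroptosis, LPCAT3, which remodels phospholipids, had 8.91, 8.56 and 9.43 in CON, 7.52, 7.41 and 7.82 in LOW and 7.12, 7.06 and 8.64 in HIGH, and SLC40A1, the iron exporter, had 16.8, 10.8 and 5.43 in CON, 13.6, 9.91 and 10.9 in LOW and 21.0, 15.8 and 11.0 in HIGH. The median difference of the lists in HIGH against CON lay between -0.29 and 0.17. The lowest was that of the glutathione transferases, and the highest that of the list of superoxide and peroxide sources, UCP2 included.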

How the data were processed

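RNA of 9 libraries, 3 in each of CON, LOW and HIGH, was sequenced after ribosomal RNA removal. The paper states alignment with Hisat2 and assembly with Stringtie, and HTSeq 0.6.0 was named for counting. The sample records also name STAR 2.5.1b, TopHat and TopHat2, so which aligner gave the deposited values is uncertain. The genome build is not given in the sources used here. The deposited tables gave FPKM per gene and per transcript. The deposited count tables held whole numbers equal, within 3%, to FPKM times genomic span times 1 factor per library, a rescaled score, so they were not used for tests; the read totals that the study states for each library were not used here.

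Each library was scaled on the median log2 FPKM of 8539 named genes whose FPKM was never under 1. A gene entered if 3 libraries or more reached an FPKM of 0.1 and its model spanned 300 bases or more. The test was limma 3.58.1 (R 4.3.3) on log2(FPKM + 0.1), with all groups in 1 model and a trend of the spread; adding 0.1 understates changes of low genes. Intervals are at 95%. The code was tested on simulated data. Values in every library are given for the regulators and NRF2 targets, for genes with an unadjusted p under 0.05, for the 3 highest and the 3 lowest levels and for the 3 largest spreads; for related genes, for the 2 lowest F p in each list, of which some are not reported here. The members and lists were chosen with earlier results of these data known. Figures were drawn with matplotlib 3.10.9.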

Additional observations from a re-analysis of the deposited data

How the results depend on the processing

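The 26 settings tried changed the pseudocount, filter, scaling, covariates, trend, table or samples. In LOW against CON 0 of 30 members were called in each of them. The weighted fits, chosen after seeing the data, were the exception elsewhere. With library weights that did not converge, 26 members were called in HIGH against CON, 15 in HIGH against LOW and 27 in the F test (69% of all genes); KEAP1 then had a log2 fold change of 0.13 in HIGH against CON, against 0.00 with equal weights. With weights estimated gene by gene these counts were 18, 7 and 12 (37.8% of all genes). That weighting favours the middle library of CON and of HIGH, and the cause was not tested.

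The median difference of the members in HIGH against LOW was 0.12 with the small RNA share as a covariate. Leaving out 1 library moved the medians between -0.20 and 0.12 in LOW against CON, between -0.39 and -0.07 in HIGH against CON and between -0.29 and -0.05 in HIGH against LOW. Members with an unadjusted p under 0.05 numbered 0 to 6, 0 to 27 and 0 to 18 over all settings, against 0, 1 and 0. The highest counts came with the library weights that did not converge, where 27.0%, 70.1% and 47.1% of all genes had such a p in limma. Among related genes 1 (TXNIP) was called in LOW against CON and 1 (TXNIP) in HIGH against CON with the ribosomal covariate, and 0 to 1 in LOW against CON when 1 library was left out.

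Replicate numbers are shared between groups. Same-numbered libraries had deviations correlated at -0.03 to 0.43, and 6 of 9 were closest to their own number. The labels do not say that the numbers pair the samples, and these values do not settle it. The main fit left the libraries unpaired, and a fit with a replicate block is given beside it. With the replicate block 0 members and 1 related gene (TXNIP, LOW against CON) were called, and 0, 7 and 6 members had an unadjusted p under 0.05 (2.61%, 15.3% and 16.1% of all genes). The edgeR and DESeq2 alternatives were not run, because the count tables were taken to hold rescaled FPKM and not counts.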
